A study of Rattus norvegicus with 10 samples.

Results

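The genes described here encode the voltage-gated sodium and calcium channels, the hyperpolarization-activated HCN channels and the TRP channels, as expressed in the left hippocampus of male TgF344-AD rats. They were taken by symbol, as every gene whose symbol begins with Scn, Cacna, Cacnb, Hcn, Trpc, Trpm or Trpv followed by the number of a family member. The count table held 55 such symbols on 67 lines, out of 13686 symbols on 14834 lines. These were 10 sodium channel alpha and 4 beta subunits, 10 calcium channel alpha-1 subunits (4 L-type, 3 of the P/Q-, N- and R-types and 3 T-type), 4 alpha-2-delta and 4 beta calcium channel subunits, 4 HCN channels, and 6 TRPC, 6 TRPM and 6 TRPV channels. The last symbol, Trpc4ap, meets the rule by its spelling, but it encodes a protein associated with a TRPC channel and is no channel itself.

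Voltage-gated sodium channels open on depolarization and carry the upstroke of the action potential, with beta subunits that set their gating and their place in the membrane. Voltage-gated calcium channels couple depolarization to transmitter release, dendritic signalling and gene expression, while their alpha-2-delta and beta subunits bring the pore to the surface. HCN channels open on hyperpolarization and carry a mixed cation current that sets resting potential and rhythmic firing in hippocampal cells, and TRP channels are cation channels opened by lipids, calcium, temperature, oxidative signals or osmotic stretch.

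Each of the 10 libraries came from a separate rat, and all 10 rats carried the TgF344-AD transgenes, which are mutant human APP and presenilin driven by the mouse prion promoter in a Fischer background. In the BT-11 group, 5 rats received chow with BT-11, an oral ligand of the lanthionine synthetase-like protein LANCL2, starting at 5 months of age and lasting 6 months. The untreated group of 5 rats ate rodent chow without it. Both groups were male, were perfused and sampled at 11 months under anaesthesia with xylazine at 10 mg/kg plus ketamine at 100 mg/kg, and no wild-type rats were included, so that the comparison is between transgenic rats only. Summed counts ran from 9969413 to 11207817 in BT-11 and from 8984439 to 11301545 in untreated libraries.

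Levels are given as CPM, the count of a gene relative to the library total, on library sizes scaled by the TMM method. Changes are log2 fold changes of BT-11 over untreated from edgeR's quasi-likelihood fit over 11771 genes, with the standard error (SE) of the fit. A gene was called where its Benjamini-Hochberg adjusted p over those genes was under 0.05, and the p-values measure the spread between these rats. Hippocampal tissue was checked against 13 markers of its principal neurons, whose summed level was 3078 to 4572 CPM in BT-11 and 3046 to 4191 CPM in untreated libraries, with no marker at 0. The lowest sums were those of BT-11 replicate 2 at 3078 CPM and untreated replicate 2 at 3046 CPM. Slc17a7 and Camk2a were the highest of the 13 in every library, and the sum does not show how even the dissection was. Prox1, another of the 13, was at 22.3 and 26.7 CPM in untreated replicates 1 and 2, against 52.3 to 92.4 CPM in the other libraries. In whole tissue, fewer cells of a type and less RNA per cell cannot be told apart.

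A filter on low counts (about 1.0 CPM in at least 5 libraries) left 44 of the 55 genes for testing. Trpv3, which reached that level in 7 libraries, lay just above, while Hcn4 and Scn7a reached it in 4 and lay just below. The 11 genes that were not tested were Cacna1f, Cacna1s, Cacna2d4, Hcn4, Scn7a, Scn10a, Scn11a, Trpm1, Trpm8, Trpv4 and Trpv5, and their levels are given at the end.

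Of the genes given here one by one, sodium channel beta subunits stood highest per length of the listed transcript. Scn3b, a beta subunit that changes the gating of the alpha subunit, stood at 256 ± 51.1 CPM per kb (mean ± SD over 10 libraries), and Scn2b followed at 89.4 ± 21.7 CPM per kb. These orders depend on listed lengths, which for Scn2b is 860 bases and for Scn4b is 4272 bases, and Scn4b stood at 8.60 ± 1.88 CPM per kb. Among the alpha subunits Scn2a, the channel of principal cell axons, was at 61.5 ± 6.37 CPM per kb, above Scn8a, the main channel of mature initial segments and nodes, at 28.8 ± 8.58 CPM per kb. Scn1a, which is prominent in fast-spiking interneurons, was lower at 13.5 ± 1.33 CPM per kb, and Scn3a, the form that is prominent before birth, was at 7.77 ± 0.909 CPM per kb.

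The calcium channel pores were led by Cacna1a, the P/Q-type pore of fast transmitter release, at 29.2 ± 3.95 CPM per kb. Cacna1h, a T-type pore that opens at low voltage, was at 16.0 ± 2.97 CPM per kb, and Cacna1e, the R-type pore, at 14.7 ± 5.49 CPM per kb. Cacna1b, the N-type pore, stood at 13.4 ± 1.56 CPM per kb. The levels of the last 3 lay within each other's spread. The L-type pores Cacna1d and Cacna1c followed at 8.99 ± 1.87 and 8.68 ± 1.76 CPM per kb and likewise did not separate. Cacnb3 led the beta subunits at 77.3 ± 6.92 CPM per kb, and Cacna2d3 led the alpha-2-delta subunits at 40.8 ± 7.32 CPM per kb.

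Hcn2, a widespread HCN channel of the brain, was at 40.5 ± 4.52 CPM per kb. Of the TRP channels, Trpc4 led at 15.2 ± 3.04 CPM per kb, within the spread of Trpc6 at 13.3 ± 3.68 CPM per kb and Trpc1 at 12.2 ± 0.987 CPM per kb. Trpm7, a channel fused to a kinase, had the highest mean of the TRPM genes at 7.65 ± 0.753 CPM per kb. It lay within the spread of Trpm3 at 6.37 ± 2.04 CPM per kb. Trpv6 led the TRPV genes at 4.68 ± 0.538 CPM per kb.

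**Figure D1:**
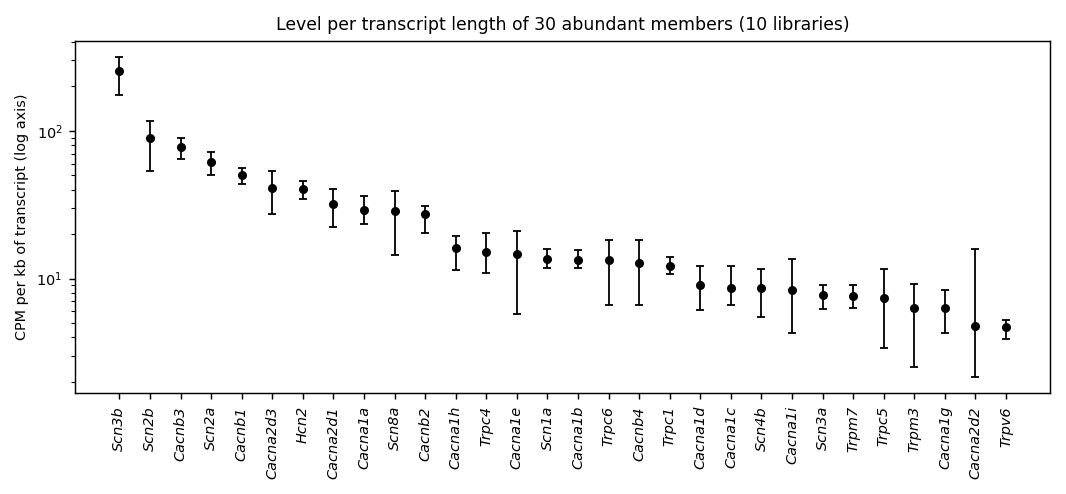
Level of 30 abundant members in CPM per kb of listed transcript on a log axis, where points are means over the 10 libraries and bars run from the lowest to the highest library. The sodium channel beta subunits Scn3b and Scn2b lie at the top, and the bars of Cacna1e and Scn8a are long because untreated replicates 1 and 2 are low.

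No gene of these families passed the adjusted threshold between BT-11 and untreated hippocampi in edgeR, and none of the 11771 genes tested did. The smallest Benjamini-Hochberg adjusted p of edgeR was 0.402 over all genes and 0.448 among the 44 channel genes. At an unadjusted p under 0.05 there were 8 of the 44 (18.2%), against 1070 genes or 9.09% of all genes tested. Of these, 6 were higher in BT-11 (among them Cacna1d, Cacna1h, Scn4b, Trpc6 and Trpm4; background 4.04%) and 2 were lower (Trpc7 and Trpv2; background 5.05%). The median log2 fold change of the 44 was 0.15, with 28 above 0 and 16 below, against a median of -0.0065 over all genes, 48.2% of which were above 0. Leaving out 1 library at a time took this median to between 0.067 and 0.16. It was 0.067 without untreated replicate 2, 0.079 without untreated replicate 1, 0.084 without BT-11 replicate 5 and 0.097 without BT-11 replicate 4.

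No channel gene had all of its BT-11 libraries above or below all of its untreated libraries, where 1.26% of all genes did (0.527% higher and 0.731% lower in BT-11). DESeq2 called 40 genes (0.304% of those it tested) and none of the channel genes. Leaving out untreated replicates 2 and 5, whose choroid plexus markers were high, left only Cacna1d at an unadjusted p under 0.05, against 4.51% of all genes. The 11 choroid plexus markers summed to 10.1 to 33.1 CPM in BT-11 libraries, against 3813 and 739 CPM in these 2 untreated libraries and 12.1 to 74.1 CPM in the other untreated ones, and only Sostdc1 was at 0 in any library. The part of this tissue in the channel values was not tested. Leaving out 1 library at a time gave between 3 and 10 channel genes at an unadjusted p under 0.05. The share of all genes at that level moved too, to as much as 12.5%. The count was 3 without untreated replicate 5 (9.58% of all genes), 4 without untreated replicate 2 (6.34%) and 5 without untreated replicate 1 (7.37%). Without untreated replicate 3, edgeR called 62 genes, 0 of them channel genes, and Cacna1d, Cacna1h, Trpc7 and Trpv2 no longer overlapped between the groups (4 genes, against 5.52% of all genes). Without untreated replicate 1 or BT-11 replicate 3 this held for Trpm4, and without BT-11 replicate 1 for Trpm7. The share of all genes in those runs is not given here, and fewer libraries make a lack of overlap easier to reach.

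**Figure D2:**
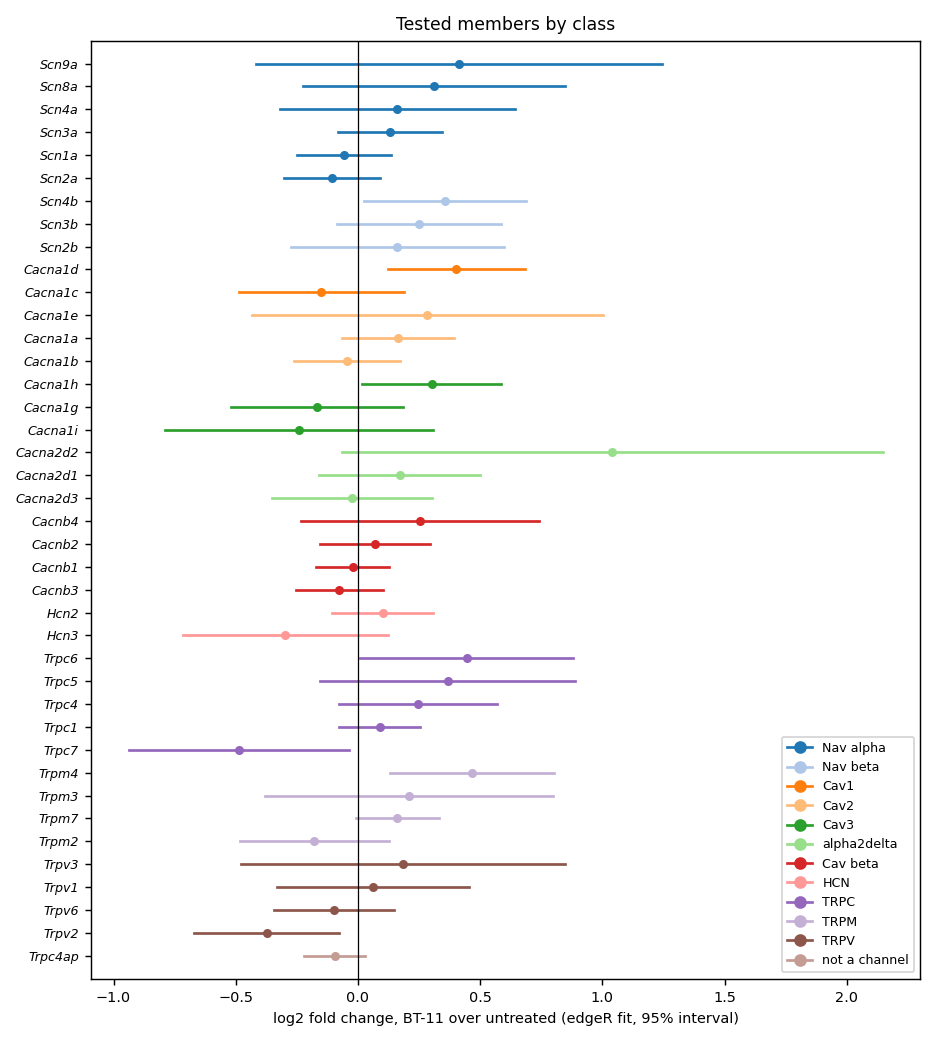
Log2 fold change of BT-11 over untreated for 40 tested members from the edgeR fit, coloured by class, where bars are 95% intervals. Most intervals cross 0, and 25 points lie right of 0 against 15 left of it.

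Of the 10 sodium channel alpha genes, 7 were tested and 5 of these had a positive log2 fold change, and the beta subunit genes Scn2b, Scn3b and Scn4b had a positive one too. Scn4b, a disulfide-linked beta subunit whose tail can block the open pore and give resurgent current, had 39.3, 37.1, 33.7, 49.9 and 46.2 CPM in BT-11 replicates 1 to 5, against 39.7, 28.8, 39.5, 29.9 and 23.6 CPM in untreated replicates 1 to 5. BT-11 replicates 4 and 5 were above every untreated library, whereas the other BT-11 libraries lay among the untreated ones. Its log2 fold change was 0.36 ± 0.15 (SE; unadjusted p = 0.0368, Benjamini-Hochberg adjusted p = 0.52, edgeR). The gene lies on chromosome 8, 49441106 to 49456280, plus strand of build rn6, as listed in the table, where it was not settled whether starts count from 0 or 1. Scn3b had 1073, 739, 1232, 1169.7 and 1188 CPM in BT-11 replicates 1 to 5, against 1065, 792, 1085, 921 and 680.1 CPM in untreated replicates 1 to 5. Its 3 lowest libraries were untreated replicate 5, BT-11 replicate 2 and untreated replicate 2, and the log2 fold change was 0.25 ± 0.15.

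Scn2a had 418 to 551 CPM in BT-11 and 482 to 598 CPM in untreated libraries, with a log2 fold change of -0.11 ± 0.090 and a 95% interval of -0.30 to 0.090. Scn1a gave -0.057 ± 0.088 with an interval of -0.25 to 0.13, and Scn2b gave 0.16 ± 0.20 with an interval of -0.27 to 0.60. For these 3 genes the intervals left room for changes of either sign. Scn8a gave 0.31 ± 0.25, with a wider interval of -0.23 to 0.85, and untreated replicates 1 and 2 were far below the rest. Scn3a gave 0.13 ± 0.10 and Scn4a, the skeletal muscle channel, gave 0.16 ± 0.22.

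Among the calcium channel pores, Cacna1d had the smallest p. This L-type pore opens at less depolarized voltages than Cacna1c and supports pacemaking, and it lies on chromosome 16, 6112150 to 6404958, minus strand. It had 71.7, 96.9, 82.7, 72.6 and 85.2 CPM in BT-11 replicates 1 to 5, against 48.8, 50.3, 75.1, 71.5 and 63.5 CPM in untreated replicates 1 to 5. Untreated replicates 1 and 2 were the lowest and BT-11 replicate 2 the highest, and the groups overlapped because untreated replicate 3 lay above BT-11 replicates 1 and 4. The log2 fold change was 0.40 ± 0.13 (unadjusted p = 0.00873, Benjamini-Hochberg adjusted p = 0.448, edgeR), and leaving out each library in turn kept it between 0.33 and 0.48.

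The T-type pore Cacna1h had 122, 146, 146, 131 and 151 CPM in BT-11 replicates 1 to 5, against 89.5, 99.2, 154, 121 and 101 CPM in untreated replicates 1 to 5. The highest library of all was untreated replicate 3, while the other untreated libraries were below every BT-11 library. Its log2 fold change was 0.30 ± 0.13 (unadjusted p = 0.0388 and Benjamini-Hochberg adjusted p = 0.525, edgeR). Cacna1c, the other L-type pore tested, had a log2 fold change of -0.15 ± 0.16. The other T-type pores, Cacna1g and Cacna1i, gave -0.17 ± 0.16 and -0.24 ± 0.25, and the largest line of Cacna1g alone gave -0.34. The release channels Cacna1a and Cacna1b gave 0.16 ± 0.10 and -0.045 ± 0.10, and Cacna1e gave 0.28 ± 0.33.

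Among the auxiliary subunits, 2 of 3 tested alpha-2-delta genes and 2 of 4 beta subunit genes were above 0. Cacnb1, Cacnb2, Cacnb3 and Cacnb4 gave -0.021 ± 0.069, 0.068 ± 0.10, -0.076 ± 0.082 and 0.25 ± 0.22, and Cacna2d3 gave -0.023 ± 0.15. Cacna2d1, the binding site of gabapentin, gave 0.17 ± 0.15 and was named after its values were seen. Among the HCN genes, Hcn2 and Hcn3 gave 0.10 ± 0.095 and -0.30 ± 0.19, with no unadjusted p under 0.05.

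Of the TRP genes, 5 of 6 tested TRPC, 3 of 4 TRPM and 2 of 4 TRPV genes had a positive log2 fold change. Trpm4, a monovalent cation channel opened by intracellular calcium, had 3.66, 3.63, 3.24, 3.66 and 3.58 CPM in BT-11 replicates 1 to 5, against 3.27, 2.41, 2.57, 2.32 and 2.30 CPM in untreated replicates 1 to 5. The lowest BT-11 library and the highest untreated library overlapped by a narrow margin, and the other libraries of the groups were apart. The log2 fold change was 0.47 ± 0.15 (unadjusted p = 0.0105, Benjamini-Hochberg adjusted p = 0.448, edgeR). The gene lies on chromosome 1, 101293300 to 101323188, minus strand, at a level of only 2 to 4 CPM.

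The diacylglycerol-gated channels Trpc6 and Trpc7 had fold changes of opposite sign. Trpc6 had 44.2, 50.7, 42.7, 30.8 and 46.5 CPM in BT-11 replicates 1 to 5, against 18.6, 25.9, 44.6, 37.6 and 31.2 CPM in untreated replicates 1 to 5. Untreated replicates 1 and 2 were the lowest, and BT-11 replicate 4 lay below untreated replicates 3, 4 and 5, with a log2 fold change of 0.44 ± 0.20 (unadjusted p = 0.0469 and Benjamini-Hochberg adjusted p = 0.542, edgeR). Trpc7 had 2.59, 1.86, 1.77, 2.47 and 2.95 CPM in BT-11 replicates 1 to 5, against 3.50, 3.62, 2.25, 3.10 and 3.90 CPM in untreated replicates 1 to 5. Only untreated replicate 3 was inside the BT-11 range, and the log2 fold change was -0.49 ± 0.21 (unadjusted p = 0.0359 and Benjamini-Hochberg adjusted p = 0.52, edgeR).

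Trpv2, a channel that is well known in macrophages and microglia, had 10.6, 9.62, 10.0, 8.90 and 8.32 CPM in BT-11 replicates 1 to 5, against 13.9, 12.9, 9.20, 10.7 and 14.7 CPM in untreated replicates 1 to 5. Only untreated replicate 3 fell inside the BT-11 range, and untreated replicates 1, 2, 4 and 5 were above every BT-11 library. Its log2 fold change was -0.37 ± 0.14 (unadjusted p = 0.0178, Benjamini-Hochberg adjusted p = 0.475, edgeR). Trpv2 is summed over 3 lines of the table, and its largest line alone gave -0.46 with an unadjusted p of 0.179. The 12 microglial markers in the table summed to 833 to 942 CPM in BT-11 and 833 to 1101 CPM in untreated libraries, where none was at 0 and none had an unadjusted p under 0.05. Trpm2, opened by ADP-ribose under oxidative stress, gave -0.18 ± 0.14, while Trpm7 gave 0.16 ± 0.079 and Trpv6 -0.10 ± 0.11. The receptor-operated channels Trpc1, Trpc4 and Trpc5 gave 0.088 ± 0.077, 0.25 ± 0.15 and 0.37 ± 0.24, and Trpm3, gated by heat and neurosteroids, gave 0.21 ± 0.27, or 0.47 from its largest line alone. Trpv1, the capsaicin receptor, gave 0.060 ± 0.18 and the warmth-gated Trpv3 gave 0.18 ± 0.31. None of these 6 had an unadjusted p under 0.05. Trpc4ap, the non-channel symbol, gave -0.095 ± 0.058.

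**Figure D3:**
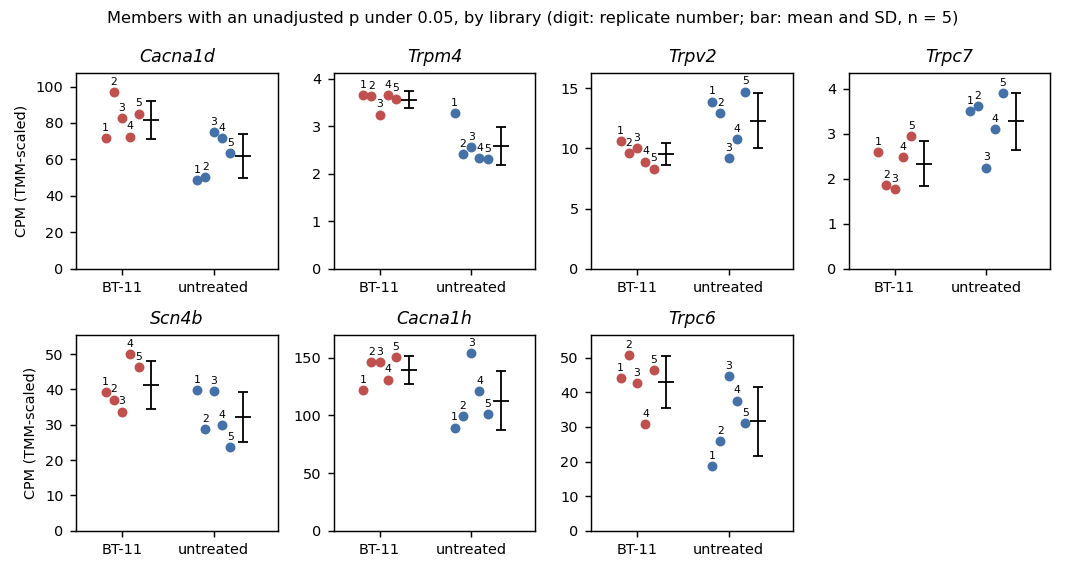
CPM per library of 7 members with an unadjusted p under 0.05, with BT-11 left and untreated right, replicate numbers as digits and bars for the mean and SD (n = 5). None of these genes separates the groups fully.

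A separate pattern ran through BT-11 replicates 2 and 4. They stood highest in Cacna2d2, an alpha-2-delta subunit of Purkinje cells and some interneurons. Cacna2d2 had 8.48, 55.2, 9.54, 31.6 and 7.51 CPM in BT-11 replicates 1 to 5, against 9.36, 11.5, 8.98, 10.1 and 14.3 CPM in untreated replicates 1 to 5. The other BT-11 libraries lay within or just below the untreated range. Scn9a, a channel of peripheral sensory neurons, was likewise highest in these libraries at 5.00 and 2.87 CPM, against 1.43 to 1.77 CPM in the remaining BT-11 and 0.902 to 2.63 CPM in the untreated libraries. Scn11a, another sensory neuron channel, had 13 and 10 counts there and 0 to 2 counts in every other library. Cacna2d2 was singled out after its values were seen, with a log2 fold change of 1.04 ± 0.51 and an unadjusted p of 0.063 in edgeR.

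Some markers of other cells and brain regions were also highest in these libraries, while others of the same lists were not. Prkcd, a kinase gene with high levels in thalamus, was at 115 and 60.4 CPM in BT-11 replicates 2 and 4, against 9.83 to 11.4 CPM in the remaining BT-11 and 11.7 to 13.3 CPM in the untreated libraries. The 11 thalamic markers summed to 323 and 248 CPM there, against 186 to 202 CPM in the remaining BT-11 and 164 to 208 CPM in untreated libraries, with none at 0. Without Prkcd and Calb2, the other 9 summed to 179.7 and 167 CPM in those 2 libraries, against 168 to 181 CPM in the remaining BT-11 and 143 to 184 CPM in untreated libraries. The 10 striatal markers reached 329 CPM in BT-11 replicate 2 but 210.2 CPM in replicate 4, against 182 to 225 CPM in untreated libraries, and among them only Six3 was at 0 in any library. Zic1, a transcription factor gene chosen after its values were seen, was at 65.4 and 31.7 CPM, against 2.56 to 5.55 CPM in BT-11 replicates 1, 3 and 5 and 2.26 to 4.70 CPM in untreated libraries.

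Several markers of inhibitory neurons were high in BT-11 replicates 2 and 4 as well. Slc32a1, the vesicular GABA transporter, was at 130.1 and 89.1 CPM there, against 44.4 to 52.9 CPM in the remaining BT-11 and 44.4 to 60.8 CPM in the untreated libraries. Gad2, a GABA-synthesising enzyme, was at 109 and 100.0 CPM, against 39.4 to 56.2 CPM in the remaining BT-11 and 28.0 to 67.2 CPM in the untreated libraries. Gad1, the other such enzyme, was at 359 and 291 CPM, against 169 to 231 CPM in the remaining BT-11 and 189 to 262 CPM in the untreated libraries. The 10 markers listed for parvalbumin interneurons, which include these 3, summed to 766 and 692 CPM, against 483 to 581 CPM in the remaining BT-11 and 495 to 679.5 CPM in untreated libraries, with none at 0. Pvalb itself was not high there, at 25.6 and 39.7 CPM, against 40.2 to 56.9 CPM in the remaining BT-11 and 42.8 to 68.9 CPM in the untreated libraries. Kcnc1 was lowest there at 79.9 and 80.5 CPM, against 87.1 to 94.6 CPM in the remaining BT-11 and 87.6 to 104 CPM in the untreated libraries. Apart from Slc32a1, Gad2 and Gad1, no gene of this list was highest in either library, so the high sums rested on these 3. The part of other brain regions and of inhibitory neurons in the channel values was not tested. Leaving out BT-11 replicates 2 and 4 gave 5 channel genes at an unadjusted p under 0.05 (among them Cacna1d, Cacna1g, Scn3b and Trpm4), or 11.4% of the 44, against 6.12% of all genes.

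Of 16 pan-neuronal markers, 15 had a log2 fold change below 0, 6 of them at an unadjusted p under 0.05, where 5.05% of all genes were lower at that level. Their summed level was 10543 to 13004 CPM in BT-11 and 12624 to 15795 CPM in untreated libraries, with no marker at 0. The 13 hippocampal principal neuron markers had 9 above 0 and 4 below. At an unadjusted p under 0.05 there were 2 higher (background 4.04%) and 1 lower (background 5.05%). Of 16 astrocyte markers, 15 were below 0, 7 of them at that level, and their sums were 10373 to 11459.9 CPM in BT-11 and 10696 to 12677 CPM in untreated libraries. All 13 oligodendrocyte markers were above 0, 1 of them at that level (4.04% of all genes were higher there), with sums of 8859 to 15338 CPM in BT-11 and 8281 to 17142 CPM in untreated libraries. Of 13 meningeal markers, 9 were below 0, 6 of them at that level, with sums of 299.8 to 491 CPM in BT-11 and 368 to 793 CPM in untreated libraries, the highest of which was untreated replicate 2. No marker of these 3 lists was at 0. The part of these lists in the channel values was not tested.

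Genes whose products bind or regulate these channels were counted from 4 lists. Of 14 tested partners of sodium channels and of the sodium leak channel NALCN, 8 were higher and 6 lower in BT-11, none at an unadjusted p under 0.05. Of 21 calcium channel partners, 11 were higher and 10 lower, with 3 and 2 at that level (background 4.04% higher and 5.05% lower). Cacng5, a transmembrane regulator of AMPA receptors related to the calcium channel gamma subunit, had 1.43, 4.02, 1.47, 4.75 and 2.15 CPM in BT-11 replicates 1 to 5, against 0.902, 0.767, 1.07, 0.554 and 1.15 CPM in untreated replicates 1 to 5. BT-11 replicates 2 and 4 were again the highest, and the log2 fold change was 1.60 ± 0.39 (unadjusted p = 0.00143, Benjamini-Hochberg adjusted p = 0.402, edgeR). Rimbp2, which ties calcium channels to release sites, gave 0.47 ± 0.12, and Cachd1, an alpha-2-delta-like protein, gave -0.65 ± 0.18.

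Of 7 HCN partners tested, 4 were higher and 3 lower, with 1 and 2 at an unadjusted p under 0.05 (background 4.04% higher and 5.05% lower). One of the lower ones was Kcne2, an auxiliary potassium channel subunit of choroid plexus, at 1.67 to 2.97 CPM in BT-11 libraries, against 25.2 CPM in untreated replicate 2 and 6.38 CPM in replicate 5, the libraries with the highest choroid plexus markers. Of 12 genes of store-operated calcium entry and other TRP channels, 8 were higher and 4 lower, with 1 higher at that level (background 4.04%). This was the store-operated pore subunit Orai2 at 0.27 ± 0.12. No partner passed the adjusted threshold in edgeR.

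The libraries were also compared by replicate number, 4 and 5 (4 libraries, 2 of each group) against 1 to 3 (6 libraries, 3 of each group). This split was taken from the expression of these same libraries, and no label calls it a batch, so that the values are a description with no test. All 4 libraries numbered 4 and 5 were above all 6 others in 8 of the 44 tested channel genes (18.2%), against 5.56% of all genes tested. None of the 44 had all 4 below, against 4.37% of all genes, and 9.93% of all genes were apart in either direction. The 8 were Cacna1b, Cacna1e, Cacna1i, Cacna2d3, Scn2a, Scn2b, Scn8a and Trpc5. The median log2 difference of the 44, numbers 4 and 5 minus numbers 1 to 3, was 0.14, with 31 above 0 and 13 below, against -0.0099 over all genes.

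Cacna1e had the largest difference at 0.82 (SE 0.27 in the fit), with 129.7 and 143 CPM in BT-11 replicates 4 and 5 and 128 and 147 CPM in untreated replicates 4 and 5, against 78.6, 107 and 105 CPM in BT-11 replicates 1 to 3 and 42.0, 40.0 and 106 CPM in untreated replicates 1 to 3. Scn8a differed by 0.66, with 229 and 252 CPM in BT-11 replicates 4 and 5 and 226 and 233 CPM in untreated replicates 4 and 5, against 159.8, 179 and 206 CPM in BT-11 replicates 1 to 3 and 99.8, 92.6 and 175 CPM in untreated replicates 1 to 3. In both genes untreated replicates 1 and 2 were far below the rest, and BT-11 replicates 1 to 3 with untreated replicate 3 lay between them and the libraries numbered 4 and 5. Scn2b, a disulfide-linked beta subunit, differed by 0.56, with 90.4 and 93.0 CPM in BT-11 replicates 4 and 5 and 99.6 and 95.7 CPM in untreated replicates 4 and 5, against 71.6, 69.3 and 82.1 CPM in BT-11 replicates 1 to 3 and 46.3, 49.6 and 71.4 CPM in untreated replicates 1 to 3. The order of its libraries was much like that of the previous pair. Cacna1i differed by 0.71 and had 62.9 and 57.8 CPM in BT-11 replicates 4 and 5, against 78.9 and 89.6 CPM in untreated replicates 4 and 5, its highest libraries.

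Trpc5, a TRPC channel of hippocampal and amygdalar neurons, differed by 0.67. Scn2a and Cacna1b differed by only 0.23 and 0.30, yet without overlap, since their libraries spread little. Cacna1b stood at 141 to 149.6 CPM in numbers 4 and 5 and at 113 to 124 CPM in numbers 1 to 3. Other genes had like differences with overlap, among them Trpm3 at 0.49 and Cacna1c at 0.41. Scn1a and Scn3a, whose genes lie within 1 cluster of sodium channel genes on chromosome 3 with Scn2a, differed by 0.18 and 0.19.

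**Figure D4:**
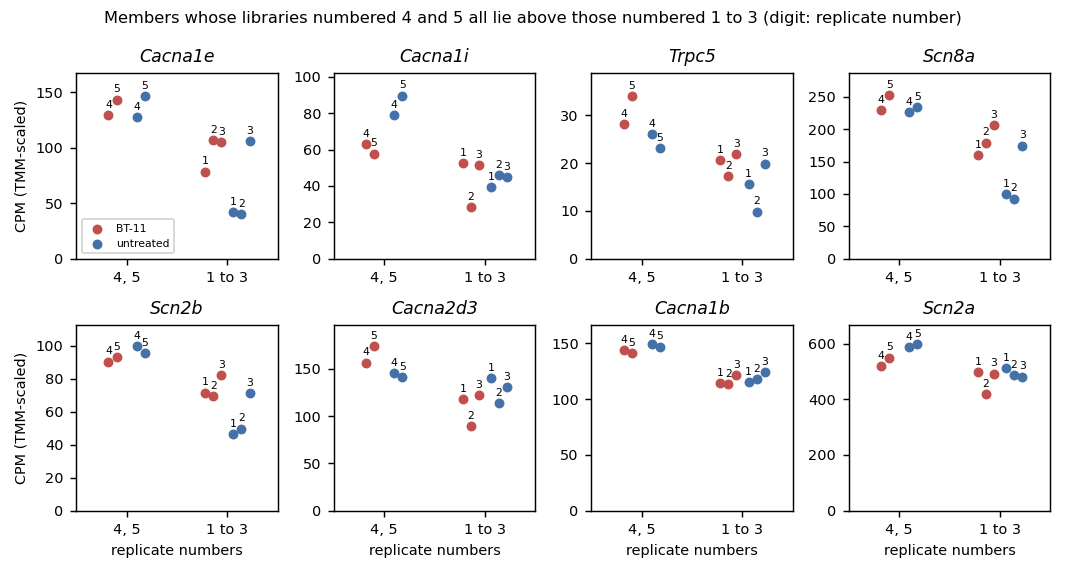
CPM per library of the 8 members whose 4 libraries numbered 4 and 5 lie above all 6 libraries numbered 1 to 3, with BT-11 in red, untreated in blue and replicate numbers as digits. Untreated replicates 1 and 2 are lowest in Cacna1e, Scn8a, Scn2b and Trpc5.

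These channel genes are long, and transcript length moved with the libraries. The median listed length was 3916.5 bases for the 44 and 2224 bases for all genes tested, and 27 of the 44 were in the longest of 4 equal classes of genes by length, of 3363 bases or more. In that class the median log2 difference between the sets was 0.11 over all 2943 genes and 0.17 over the 27 channel genes, and 11.5% of its genes had numbers 4 and 5 above the rest without overlap, as did 5 of the 27. The median centred log2 level of the longest class minus that of the shortest was -0.079, 0.0012, 0.022, 0.11 and 0.12 in BT-11 replicates 1 to 5, against -0.29, -0.21, -0.024, 0.16 and 0.18 in untreated replicates 1 to 5. Between BT-11 and untreated, the median log2 fold change of the longest class was 0.031 over all genes and 0.17 over its channel genes. The part of transcript length in the channel values was not tested.

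Promoter sequence was compared for 4 of these genes, chosen because Scn8a and Cacna1e followed each other across the libraries and because Scn2b and Scn4b are neighbours on chromosome 8 that did not. Sequences are from RefSeq on build GRCr8, 5′ to 3′ along the gene's strand, and run from 250 bases before the start of the gene to 50 after it. Capitals mark the GC box, GGGCGG, which is a site for Sp-family factors, on either strand (CCGCCC on the other).
Scn8a (chr7:133860977-133861276, plus strand): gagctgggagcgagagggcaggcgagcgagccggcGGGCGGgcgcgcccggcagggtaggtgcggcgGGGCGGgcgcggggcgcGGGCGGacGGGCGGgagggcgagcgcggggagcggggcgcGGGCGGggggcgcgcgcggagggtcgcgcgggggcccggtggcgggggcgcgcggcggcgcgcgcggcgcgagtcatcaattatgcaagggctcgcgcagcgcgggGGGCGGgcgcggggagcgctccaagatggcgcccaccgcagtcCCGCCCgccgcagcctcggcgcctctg
Cacna1e (chr13:69444761-69445060, minus strand): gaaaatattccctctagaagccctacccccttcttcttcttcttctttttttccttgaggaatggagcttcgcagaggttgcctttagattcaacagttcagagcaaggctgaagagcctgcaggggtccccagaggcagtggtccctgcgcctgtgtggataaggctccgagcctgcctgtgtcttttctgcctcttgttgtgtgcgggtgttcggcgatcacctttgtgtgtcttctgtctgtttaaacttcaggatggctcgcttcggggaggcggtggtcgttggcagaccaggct
Scn2b (chr8:54322133-54322432, plus strand): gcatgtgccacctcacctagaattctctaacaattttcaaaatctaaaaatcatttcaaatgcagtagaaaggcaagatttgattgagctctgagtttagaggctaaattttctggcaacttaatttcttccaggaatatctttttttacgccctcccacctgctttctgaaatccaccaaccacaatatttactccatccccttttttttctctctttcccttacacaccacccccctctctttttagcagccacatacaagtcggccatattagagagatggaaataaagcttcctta
Scn4b (chr8:54343623-54343922, plus strand): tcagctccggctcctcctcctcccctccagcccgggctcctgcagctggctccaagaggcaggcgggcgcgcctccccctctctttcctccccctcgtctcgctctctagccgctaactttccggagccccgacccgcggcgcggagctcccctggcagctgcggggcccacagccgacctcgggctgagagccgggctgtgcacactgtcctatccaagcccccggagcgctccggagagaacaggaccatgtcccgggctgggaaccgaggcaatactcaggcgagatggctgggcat

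The Scn8a window held 7 GC boxes and was 84.7% G and C, whereas the Cacna1e window held 0 and was 53.7%. The Scn2b window held 0 at 39.0%, and the Scn4b window 0 at 70.0%. Scn8a and Cacna1e, with like values across libraries, had unlike windows. Cacna1e and Scn2b, whose libraries also ran in much the same order, both held 0 GC boxes. The genes compared were chosen by their values, and the part of promoter sequence in the channel values was not tested. RefSeq promoter windows were matched for 40 of the 55 genes, 44 windows in all. A GC box was in 20 of the 44 (45.5%), against 33.1% of 33469 rat windows, and the cAMP response element TGACGTCA, which reads the same on both strands, was in 0 of the 44, against 1.83% of all windows. These shares count windows and not genes, and Cacna2d1 entered with several overlapping windows, each with a GC box. The median G and C content was 59.5% in the 44 windows and 51.7% in all. These matches describe letters within the windows only.

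Whether the BT-11 difference differed between the sets of replicate numbers was tested by an interaction term, positive where BT-11 minus untreated was larger in numbers 4 and 5. No gene passed the adjusted threshold in edgeR. At an unadjusted p under 0.05 there were 9 of the 44 (20.5%), against 1210 genes or 10.3% of all genes, and 4 of these were positive (background 4.04%) and 5 negative (background 6.24%). Among the 9 were Scn4b, Cacna1a and Cacna2d3 with positive terms and Hcn3, Cacna1g, Trpm2 and Scn2b with negative ones. Leaving out 1 library at a time gave between 2 and 14, with 2 without untreated replicate 5 (5.32% of all genes), 5 without BT-11 replicate 5 (6.10%) and 5 without untreated replicate 1 (7.30%). The count was 14 without untreated replicate 3, against 18.9% of all genes, when Cacna1e, Scn2b and Scn8a passed the adjusted threshold in edgeR. That run left only untreated replicates 1 and 2, the lowest libraries of these genes, as the untreated libraries of numbers 1 to 3. Since the sets were also taken from the expression of these libraries, these calls are a description and no support for a difference.

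Scn4b had the smallest p of the interaction among these genes, with a term of 0.82 ± 0.21 (unadjusted p = 0.00246, Benjamini-Hochberg adjusted p = 0.28, edgeR). In numbers 4 and 5 it had 49.9 and 46.2 CPM in BT-11, against 29.9 and 23.6 CPM in untreated hippocampi. In numbers 1 to 3 it had 39.3, 37.1 and 33.7 CPM in BT-11, against 39.7, 28.8 and 39.5 CPM in untreated hippocampi. The groups were thus apart within numbers 4 and 5 and overlapped within numbers 1 to 3, which is a description only. Scn4b was picked by its p, and so few libraries make a lack of overlap easy to reach. The share of all genes apart within numbers 4 and 5 is not given here.

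Cacna1a had a term of 0.41 ± 0.15, with 316 and 321 CPM in BT-11 replicates 4 and 5, against 208 to 275 CPM in untreated libraries. Both of these BT-11 libraries lay above every other library. Hcn3 and Cacna1g gave terms of -0.81 ± 0.33 and -0.66 ± 0.29, Trpm2 and Scn2b gave -0.62 ± 0.24 and -0.50 ± 0.22, and Cacna2d3 gave 0.43 ± 0.18.

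Within numbers 4 and 5 alone, 2 BT-11 against 2 untreated libraries, the log2 fold change of Scn4b was 0.86, that of Cacna1a 0.40 and that of Cacna1i -0.48. Within numbers 1 to 3 these were 0.035, -0.0034 and 0.033. The values are given with no p, because the sets were taken from the expression of these libraries, and the p-values of the interaction likewise describe these libraries only. Numbers 4 and 5 include BT-11 replicate 4, with high Prkcd and Cacna2d2, and untreated replicate 5, with high choroid plexus markers, and their part in these values was not tested.

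**Figure D5:**
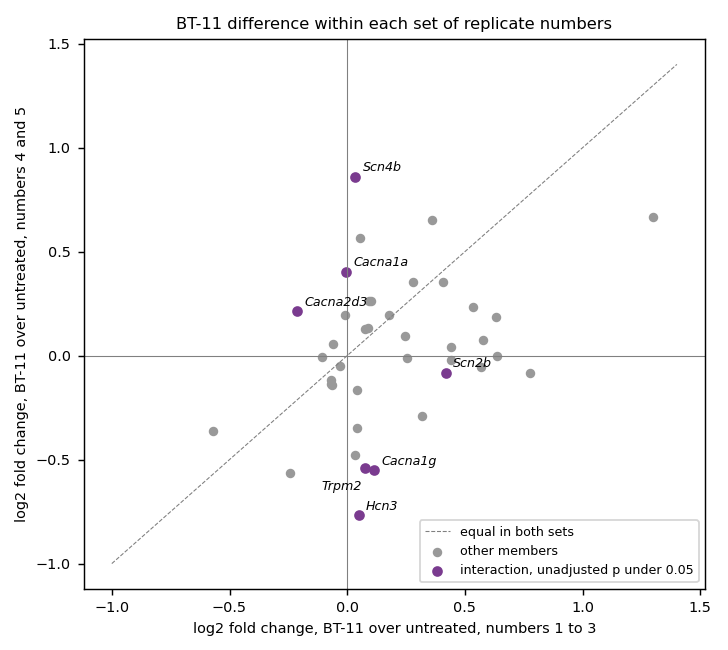
Log2 fold change of BT-11 over untreated within replicate numbers 4 and 5 (vertical axis) against that within numbers 1 to 3 (horizontal axis), 1 point per member, with the dashed line marking equal values. Scn4b, Cacna1a and Cacna2d3 lie above the line and Hcn3, Cacna1g, Trpm2 and Scn2b below it.

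The 11 genes that were not tested had at most 3.51 CPM in any library. Trpv4, an osmotically gated channel that is prominent in choroid plexus, was at 0.268 to 0.983 CPM in BT-11 libraries, against 3.51 and 1.42 CPM in untreated replicates 2 and 5 and 0.214 to 0.886 CPM in the other untreated libraries. Untreated replicates 2 and 5 also had the highest choroid plexus sums. Hcn4, the pacemaker channel of the heart, was at 0.268 to 1.77 CPM in BT-11 and 0.219 to 2.04 CPM in untreated libraries. Scn7a, a sodium-level sensor rather than a voltage-gated channel, was at 0.688 to 1.37 CPM in BT-11 and 0.886 to 1.24 CPM in untreated libraries. The retinal pore Cacna1f, the skeletal muscle pore Cacna1s and the cold receptor Trpm8 had at most 7 counts in any library. Cacna2d4, Scn10a, Trpv5 and Trpm1 had at most 3, 5, 6 and 12 counts.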

How the data were processed

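Libraries were strand-specific (KAPA mRNA kit) with single-end reads of 50 bases, as the labels' protocols state. In the submitters' processing notes stand STAR 2.7.9a, bcl2fastq 2.19.1.403, DESeq2 and Partek with build rn6, and no roles. How reads were counted, on which strand setting and with which annotation is not given in the sources used here, which leaves reads of overlapping and antisense genes unresolved. The authors deposited estimated counts per gene model, 83.2% of them whole, and CPM, which are those counts per column total plus an offset of 1e-04. From the deposited estimated count table, lines of 1 symbol were summed (9 of the 55 channel genes had several) and rounded, and values of symbols with several lines or near-identical copies are uncertain where reads were split. Replicates differed beyond sampling noise, with a chi-square per degree of freedom of 4.38 to 31.0.

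EdgeR 4.0.16 (R 4.3.3) was fitted with TMM scaling, its filter by group and robust quasi-likelihood, and p-values are two-sided and adjusted over 11771 genes. The interaction used treatment, set of replicate numbers and their product in 1 fit, and fits within a set used its own libraries and filter. The fit was tested on simulated data, drawn gene by gene from its own estimates of spread. These data held no outlying libraries and no mixed tissue, so they do not show how the fit behaves with those. Alternatives were DESeq2 1.42.0, limma-voom (limma 3.58.1), other scalings and filters, the largest line per symbol, log2 of the authors' CPM with a pseudocount of 1 or 0.1, a replicate block and omitted libraries. Reads carry no molecular identifiers, so amplification cannot be told apart from the rest of the spread between libraries.

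Members, lists and tests were chosen with earlier results of these data known. Genes were named by a rule: those past a threshold in any comparison, the most abundant by length in each class, the 5 largest differences between the sets, those beside the filter, and 12 fixed genes. The other channel genes given with a value were added after their values were seen, as were Zic1 and the omission of BT-11 replicates 2 and 4. Counts cover every channel gene, and some genes are not reported here one by one.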

Additional observations from a re-analysis of the deposited data

Results flagged for a closer look

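Within a group of 5 libraries, 1 library stood apart from the other 4 in 6 of the 64 groups looked at, by a gap of over 0.71 of the group's range. Chance gives about 1 in 20 groups. Trpm4 was 3.24 CPM in BT-11 replicate 3, the lowest of its group, where the others were at 3.58 to 3.66 CPM. In the untreated group Trpm4 was 3.27 CPM in replicate 1, the highest, where the others were at 2.30 to 2.57 CPM. Trpm7 was 44.1 CPM in untreated replicate 1, the lowest, where the others were at 51.6 to 53.1 CPM. Trpv6 was 11.7 CPM in untreated replicate 4, the lowest, where the others were at 14.4 to 15.0 CPM. Scn7a was 1.37 CPM (14 counts) in BT-11 replicate 2, the highest, where the others were at 0.688 to 0.791 CPM (7 to 8 counts). Trpv4 was 0.983 CPM (10 counts) in BT-11 replicate 3, the highest, where the others were at 0.268 to 0.392 CPM (3 to 4 counts). Both of these gaps rest on few counts, where counting error is large.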

How the results depend on the processing

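The 29 named and tested channel genes kept the sign of the BT-11 difference in 673 of 696 values under alternatives, reversed in 23, and 15 of them never reversed. The fits within a set were not repeated with a library left out. DESeq2 called 40 genes. The count of 8 channel genes at an unadjusted p under 0.05 was 4 with limma-voom (7.0% of all genes), 1 without untreated replicates 2 and 5 (4.51%) and 5 without BT-11 replicates 2 and 4 (6.12%). On numbers 4 and 5 alone the fit called 479 genes and had 20 of 45 channel genes at that level (18.6% of all genes), which supports nothing, since the set was taken from these libraries. Replicate numbers were not used as pairs, since no label ties them to a shared litter, batch or day and the correlation of deviations was 0.0534 for number 5. It was 0.134 to 0.242 for the other numbers, which does not show that these are unpaired, and only some libraries correlated best with their own number. With a replicate block 0 genes were called, 11 channel genes had an unadjusted p under 0.05 (11.2% of all genes did) and their median log2 fold change was 0.14. On CPM scaled by column totals, Trpm4 alone (1 gene) had no overlap between the groups. The share of all genes on that scaling is not given here, and with TMM scaling it was 1.26%.

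Reversed log2 fold changes were those of Cacna2d3 with limma-voom (0.0056) and of Scn1a without untreated replicates 2 and 5 (0.048). Without BT-11 replicates 2 and 4 they were Cacna2d3 (0.041), Cacnb3 (0.017) and Trpm3 (-0.046). Within numbers 1 to 3 they were Cacna1a (-0.0034), Cacna1c (0.043), Cacna1g (0.11), Cacna1i (0.033), Hcn3 (0.049), Scn1a (0.040) and Trpm2 (0.075). Within numbers 4 and 5 they were Cacna1e (-0.00093), Cacna2d3 (0.21), Scn2b (-0.083), Scn3a (-0.012) and Trpm3 (-0.019). The causes were not tested.

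Leaving out 1 library at a time, the genes called ranged from 0 to 62 (62 without untreated replicate 3), channel genes at an unadjusted p under 0.05 from 3 to 10, their median log2 fold change from 0.067 to 0.16, genes without overlap between groups from 0 to 4, and interactions from 2 to 14. Genes without overlap between the sets ranged from 8 to 10 and their median difference from 0.12 to 0.19. The ranges of genes without overlap stand here without the share of all genes in each run, and are a description only. Signs reversed for Cacna1b (-0.094 to 0.0064) and Cacna2d3 (-0.14 to 0.088). With 5 libraries a group and 2 to 4 CPM, as for Trpm4 and Trpc7, counting error limits what can be told apart.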
